A study of Mus musculus with 3 samples.

Results

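Apoe, its neighbour Apoc1, the receptors Lrp1 and Vldlr, and the lipid-binding proteins Stard10 and Fabp3 are 6 genes of lipid transport whose log2 ratios lay far out, on opposite sides, when ureteric tree cells of the embryonic mouse kidney were set against the rest of the kidney. They were chosen by gene symbol, with these ratios known. All 6 were among the 3915 genes that had a value on all 3 arrays, each through 1 probe. Kidneys were taken at 15.5 days post coitum (dpc) from mice carrying the HoxB7-GFP transgene, in which the Hoxb7 promoter drives green fluorescent protein in the ureteric tree, the branching epithelium that forms the collecting ducts. Dissociated cells, pooled from both sexes, were sorted by fluorescence into a GFP+ fraction, the ureteric tree, and a GFP- fraction, which holds every other cell type of the same kidneys and so is a mixture. Amplified RNA of GFP+ cells (channel 1) and of GFP- cells (channel 2) was hybridised together on each of 3 Mouse Compugen oligonucleotide arrays, with no common reference and no dye swap. No treatment, deletion or second age was compared.

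Apolipoprotein E is a secreted protein that coats lipoprotein particles and serves as the ligand by which cells take them up through receptors of the low-density lipoprotein (LDL) receptor family. Lrp1 and Vldlr are members of that family, and apolipoprotein C1 rides on the same particles and is known to hinder their binding to the receptors. Inside cells, fatty acid-binding proteins such as Fabp3 and START-domain proteins such as Stard10 carry lipids through the cytosol. Macrophages are a known source of Apoe outside the liver and brain.

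Values are the authors' Lowess-normalized log2 ratios, likely of GFP+ over GFP-: no source used here names the dyes, so the direction was taken from how titles and channels are labelled. In that direction, 5 of the 19 listed ureteric epithelium markers had values on all 3 arrays and all 5 had ratios above 0 on every array, led by the claudin Cldn7 (mean 2.36 ± 0.27, SD, n = 3 arrays) and the transcription factor Gata3 (2.35 ± 0.39). This list was chosen with earlier results of these data known, and 809 of all 3915 genes were positive on every array. Of the markers with fewer values, named after they were seen, Krt7 had 2.64 on array 3 alone, Cldn4 -0.66 and 1.78 on arrays 2 and 3, and Wnt7b -0.61 on array 2 alone. A positive value means more signal in GFP+ cells. A ratio of sorted fractions does not tell fewer cells of a type from less RNA per cell. Array 1 stood apart from the others: over the 3915 genes, which are not independent replicates, Pearson's r of the log2 ratios was 0.080 between arrays 1 and 2 and 0.28 between arrays 1 and 3, against 0.88 between arrays 2 and 3. Array medians over these genes were -0.044, 0.089 and 0.083. The means of the 6 genes and the counts of each list are therefore given with and without it.

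A reference promoter window of the ligand and of each receptor is shown, though all 6 genes, not these 3 alone, make up the split between the fractions. RefSeq (build GRCm38.p6) gave promoter windows, 250 bases before to 50 after a listed start, for 5 of the 6 genes, Apoc1 being the gene without an entry. Windows were searched on both strands for TATAAA, the box that positions the basal transcription machinery. They were also searched for GGGCGG, the box bound by the factor Sp1. The third motif was AGATAA, which factors of the Gata family bind, and every match is in capitals. Apoe has 3 listed starts and Vldlr 2, and the window printed for each is the one that held a match. In neither gene is it the window of the most upstream listed start. The windows lie at chr7:19698572-19698871 (minus strand) for Apoe, chr10:127621099-127621398 (minus strand) for Lrp1 and chr19:27216770-27217069 (plus strand) for Vldlr.
Apoe: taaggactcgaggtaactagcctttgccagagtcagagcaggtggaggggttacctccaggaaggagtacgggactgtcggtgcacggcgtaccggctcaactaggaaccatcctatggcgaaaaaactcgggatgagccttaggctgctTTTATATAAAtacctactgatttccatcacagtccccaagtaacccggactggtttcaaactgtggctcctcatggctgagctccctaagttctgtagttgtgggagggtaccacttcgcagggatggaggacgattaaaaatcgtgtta
Lrp1: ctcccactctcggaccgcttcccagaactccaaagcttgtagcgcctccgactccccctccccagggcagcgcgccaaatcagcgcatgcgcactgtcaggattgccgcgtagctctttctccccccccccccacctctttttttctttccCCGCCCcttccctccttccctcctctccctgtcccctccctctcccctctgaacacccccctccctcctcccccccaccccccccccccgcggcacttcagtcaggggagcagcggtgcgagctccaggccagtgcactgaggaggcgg
Vldlr: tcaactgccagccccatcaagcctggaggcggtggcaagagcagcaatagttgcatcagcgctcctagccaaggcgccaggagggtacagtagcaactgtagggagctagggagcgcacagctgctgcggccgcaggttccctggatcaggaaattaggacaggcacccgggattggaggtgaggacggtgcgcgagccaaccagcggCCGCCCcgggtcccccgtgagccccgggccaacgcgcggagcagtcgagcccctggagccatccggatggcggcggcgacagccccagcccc
The Apoe window held TATAAA once on each strand, overlapping, at bases 151 and 155 of the window. These lie at -100 and -96 from the listed start, and whether they act as a promoter box was not tested. The Lrp1 and Vldlr windows held a GC box each, on the opposite strand, at bases 152 and 209. TATAAA was in 13.6% of all 32851 windows of this table, GGGCGG in 35.7% and AGATAA in 11.2%. The windows of Fabp3 and Stard10 and the other windows of Apoe and Vldlr held none of these letters.

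Apoe, the ligand, had log2 ratios of -1.96, -2.27 and -2.19 on arrays 1, 2 and 3. All 3 values were far below 0 and close together. The mean was -2.14 ± 0.16 (SD, n = 3), or 4.41-fold less signal in GFP+ cells, and single arrays gave 3.89-, 4.83- and 4.57-fold. By mean it ranked 13th from the bottom of the 3915 genes, and 17th, 15th and 10th on arrays 1, 2 and 3.

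Apoc1, which lies next to Apoe on mouse chromosome 7, had ratios of 1.08, 1.60 and 1.35. All 3 arrays thus put it on the side opposite to Apoe. Its mean was 1.34 ± 0.26 (SD, n = 3), 2.53-fold more signal in GFP+ cells, and it ranked 23rd from the top by mean. Its place varied with the array, from 109th on array 1 to 24th and 25th on arrays 2 and 3. Within an array, the log2 ratio of Apoc1 exceeded that of Apoe by 3.04, 3.87 and 3.54, a difference that no centring of the array can change.

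Lrp1, a very large endocytic receptor that binds apolipoprotein E and many other ligands, had ratios of -1.38, -1.51 and -1.31. The arrays lay within a narrow band, and none came near those of Apoe. The mean was -1.40 ± 0.10 (SD, n = 3), 2.64-fold less signal in GFP+ cells, at rank 38 from the bottom.

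Vldlr, the very-low-density lipoprotein receptor, which also binds reelin, had ratios of 1.62, 0.76 and 1.19. It had the widest spread of the 6 genes, with array 1 highest and array 2 lowest. The mean was 1.19 ± 0.43 (SD, n = 3), 2.28-fold more signal in GFP+ cells, at rank 26 from the top by mean but 24, 185 and 37 on the single arrays. The receptors were set apart on every array, the ratio of Vldlr exceeding that of Lrp1 by 3.00, 2.28 and 2.50.

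Stard10, which binds and transfers phosphatidylcholine and phosphatidylethanolamine, had ratios of 0.75, 1.32 and 1.15. Array 1 gave the lowest value, at rank 318 from the top against 38 and 42 on arrays 2 and 3. The mean was 1.07 ± 0.29 (SD, n = 3), or 2.11-fold more signal in GFP+ cells.

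Fabp3, the heart-type fatty acid-binding protein, had ratios of 1.09, 1.00 and 1.10. These were the most alike of the 6 genes over the arrays. The mean was 1.06 ± 0.05 (SD, n = 3), 2.09-fold more signal in GFP+ cells, at rank 45 from the top.

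**Figure D1:**
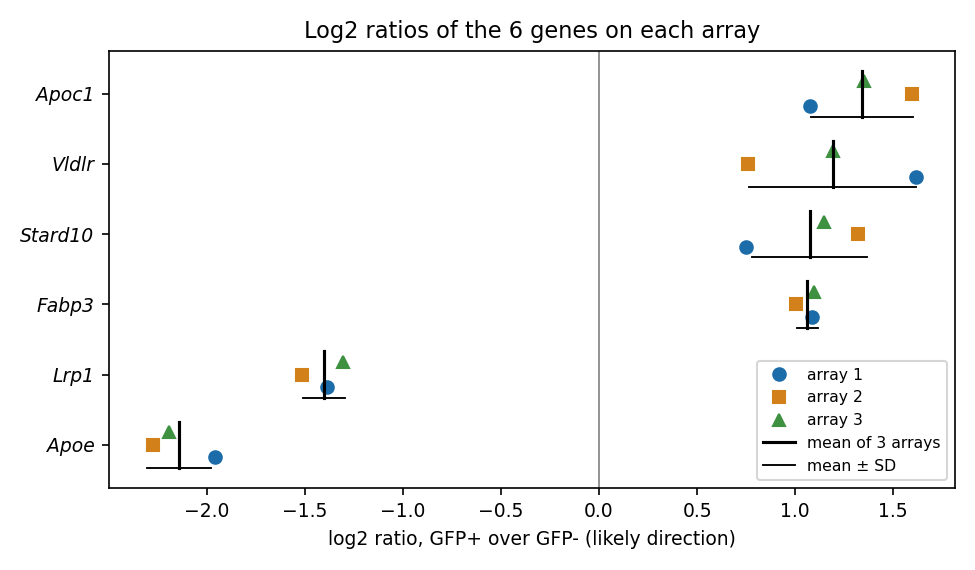
Log2 ratios (GFP+ over GFP-, likely direction) of the 6 genes on arrays 1, 2 and 3 (circles, squares and triangles), with the mean (vertical bar) and mean ± SD (horizontal bar). Apoe and Lrp1 lie below 0 on every array, between -2.27 and -1.31, and the other 4 genes above 0, between 0.75 and 1.62.

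In order of mean ratio, Apoc1, Vldlr, Stard10 and Fabp3 followed each other from 1.34 to 1.06, and neighbours in this order had overlapping ranges over the arrays. Stard10 and Fabp3 changed places between arrays, Stard10 being lower by 0.34 on array 1 and higher by 0.32 and 0.05 on arrays 2 and 3. Lrp1 and Apoe did not overlap, with Lrp1 above Apoe by 0.58, 0.76 and 0.88. Without array 1, the means were -2.23 for Apoe, 1.47 for Apoc1, -1.41 for Lrp1, 0.98 for Vldlr, 1.24 for Stard10 and 1.05 for Fabp3. Each lay on the same side of 0 as with it, which was fixed in advance because each gene had 1 sign on every array. Ratios were compared here, not transcript levels, since no probe intensities were analysed.

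By limma (mean ratio against 0, Benjamini-Hochberg adjusted p below 0.05 over all genes), 109 of the 3915 genes passed, a share of 2.78%, with 54 higher (1.38%) and 55 lower (1.40%) in GFP+ cells. The 6 genes, 4 higher and 2 lower, are among them. These ratios chose the genes, so nothing is read from that count and no p-value is given for them. The histogram of mean ratios shows where they lie among all genes.

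**Figure D2:**
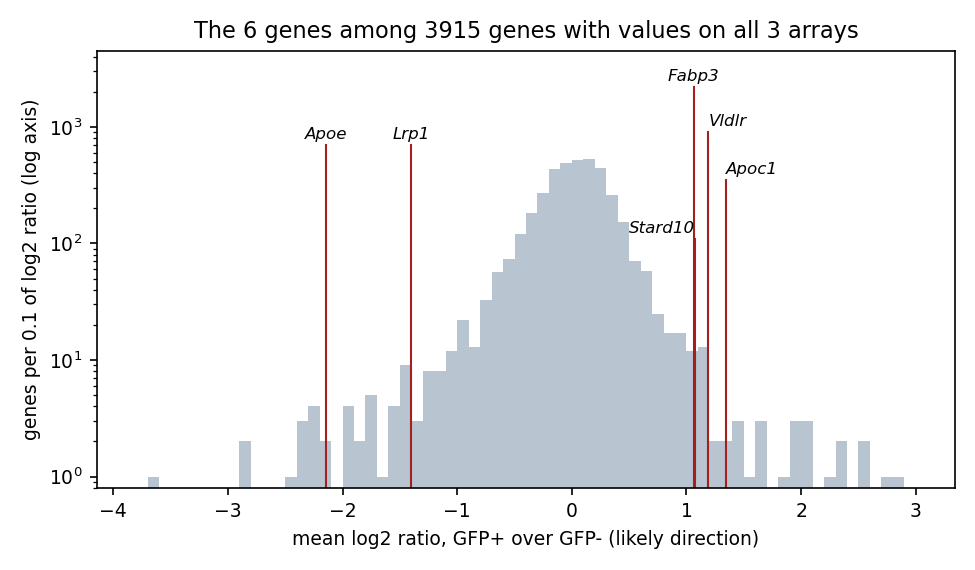
Histogram of mean log2 ratios (GFP+ over GFP-, likely direction) of the 3915 genes with values on all 3 arrays, in bins of 0.1 with the number of genes on a log axis. Red lines mark the means of the 6 genes, from -2.14 for Apoe to 1.34 for Apoc1.

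Apoe sits in a cluster of apolipoprotein genes, and the genes around it were read in RefSeq order to see how its ratio stood among its neighbours. Of the 8 protein-coding genes on each side (predicted Gm models left out), 13 had a probe, 6 of them with values on all 3 arrays, 2 with values on 2 arrays and 5 without a value. The mitochondrial import channel Tomm40, next to Apoe on the side away from Apoc1, had ratios of -0.32, -0.44 and -0.025 (mean -0.26 ± 0.21, limma adjusted p = 0.533). The adhesion protein Nectin2, the next gene on, had -0.062, 0.40 and 0.26 (0.20 ± 0.24, limma adjusted p = 0.644). Neither passed. Without array 1, Nectin2 passed by limma with a mean of 0.33, where 46.4% of all genes passed. Named after their values were seen, the laminin receptor Bcam had 1.08 and 1.11 on arrays 2 and 3 and the NF-kappaB subunit Relb -0.25 and -0.37 on the same arrays; with no value on array 1 they were not tested. Apoc2 and Apoc4, which complete the cluster, have probes listed without a value.

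**Figure D3:**
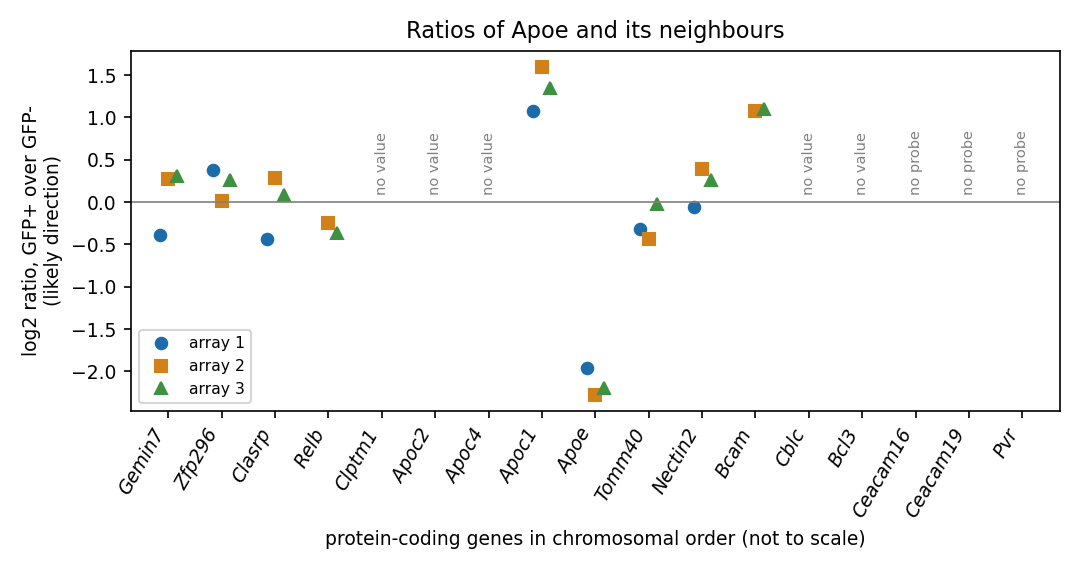
Log2 ratios (GFP+ over GFP-, likely direction) on each array for Apoe and the 8 protein-coding genes on either side, in chromosomal order and not to scale; genes with no probe or no value are marked. Apoe is lowest (-2.27 to -1.96) and its neighbour Apoc1 highest (1.08 to 1.60).

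Related genes that were not among the 6 came from 6 lists of lipid transport and metabolism. Of their 167 genes, 139 had a probe and 40 a value on all 3 arrays. By limma, 0 of the 40 passed over all genes, against 2.78% of all genes, and at an unadjusted p below 0.05 there were 7 higher and 3 lower, 25.0% against 14.9% of all genes. By an ordinary one-sample statistic 8 of the 40 passed unadjusted, against 12.0% of all genes. After adjustment 0 of the 40 passed, but only 1 of all 3915 genes did, so nothing is read from that 0. Their median mean ratio was 0.14, against 0.034 over all genes, and 26 of 40 had a positive mean (65.0%, against 54.9%). Their means ran from -0.65 to 0.70.

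Without array 1, 16 of these 40 genes were higher and 8 lower by limma, where 46.4% of all genes passed, and with array weights, which gave array 1 the lowest weight, 18 were higher and 9 lower, where 55.4% of all genes passed. For 19 of the 40, array 1 had the sign opposite to arrays 2 and 3, as it had for 1958 of the 3915 genes.

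**Figure D4:**
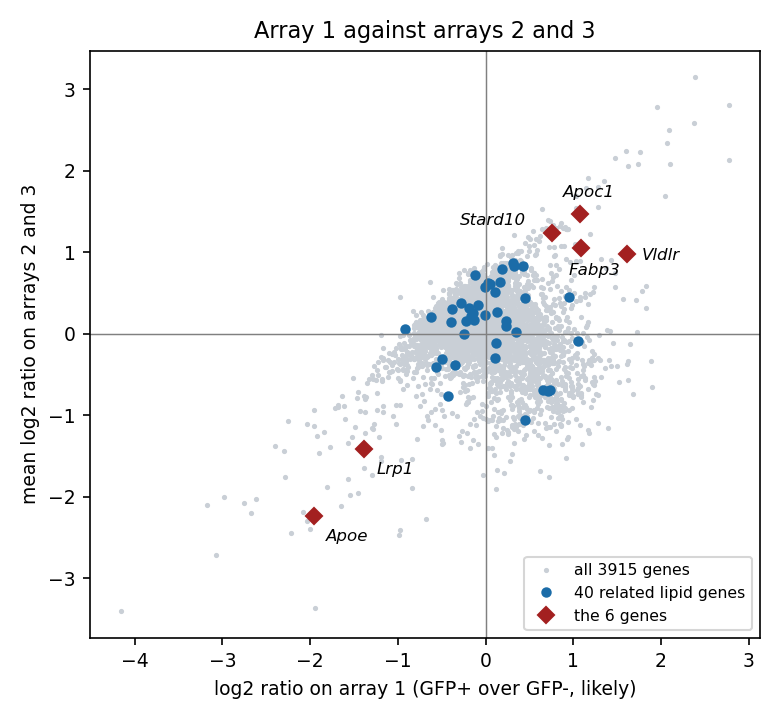
Log2 ratio on array 1 against the mean log2 ratio on arrays 2 and 3 (GFP+ over GFP-, likely direction) for all 3915 genes (grey), the 40 related lipid genes (blue) and the 6 genes (red). For 19 of the 40 related genes, array 1 has the sign opposite to arrays 2 and 3, as for 1958 of all 3915 genes.

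The list headed apolipoproteins and secreted carriers had 5 of 22 genes measured. Besides Lcn2, Clu and Apom these were Mttp (mean 0.42) and Gpihbp1 (0.43), named after their values were seen. All 5 had positive ratios on every array, as 809 of all 3915 genes had, with a median of 0.44, and 0 of 5 passed. Without array 1 the median was 0.63 and all 5 passed as higher, where 46.4% of all genes passed in either direction. The siderophore-binding lipocalin Lcn2 had ratios of 0.43, 0.89 and 0.79 (mean 0.70 ± 0.24, limma adjusted p = 0.13). Clusterin (Clu), also called apolipoprotein J, had 0.31, 0.83 and 0.91 (0.69 ± 0.32, limma adjusted p = 0.167), and Apom, a carrier of sphingosine-1-phosphate, 0.44, 0.35 and 0.52 (0.44 ± 0.08, limma adjusted p = 0.267). Pltp, the phospholipid transfer protein, had a value on array 3 alone, -1.07, and is named after it was seen.

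Of 31 lipoprotein and scavenger receptors and their adaptors, 20 had a probe and 2 a value on all 3 arrays, and 0 passed. Without array 1 both passed, Lrp5 as higher and Scarb2 as lower, where 46.4% of all genes passed. Scarb2, a lysosomal membrane protein, had -0.35, -0.45 and -0.31 (mean -0.37 ± 0.07, limma adjusted p = 0.336), and Lrp5, a Wnt co-receptor of the LDL receptor family, -0.091, 0.31 and 0.40 (0.21 ± 0.26, limma adjusted p = 0.637). Named after its values were seen, Lrp2 (megalin), the large endocytic receptor of the proximal tubule, had -0.041 and 0.062 on arrays 2 and 3. Lrp1 and Vldlr were thus, besides Lrp5, the only listed LDL receptor family members with a value on every array, and how the rest of the family was divided was not analysed here.

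The intracellular lipid-binding list had 12 of 39 genes measured, with a median of 0.12, and 0 passed. Arrays 2 and 3 alone gave a median of 0.30, and 6 genes then passed as higher and 2 as lower, where 46.4% of all genes passed. Pctp, which transfers phosphatidylcholine and has a START domain as Stard10 does, had 0.33, 0.87 and 0.78 (mean 0.66 ± 0.29, limma adjusted p = 0.168). Dbi, the acyl-CoA-binding protein, had 0.95, 0.35 and 0.54 (0.61 ± 0.30, limma adjusted p = 0.201). Psap, the precursor of the lysosomal saposins, had -0.43, -0.72 and -0.81 (-0.65 ± 0.20, limma adjusted p = 0.139). Relatives of Fabp3 and Stard10 are named here after their values were seen. Fabp4, the adipocyte form, had -0.12, 0.79 and 0.66, and Fabp5, the epidermal form, 0.73, -1.03 and -0.34. The START-domain genes Stard3 and Stard8 had means of -0.07 and 0.07, both with mixed signs.

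Of 25 cholesterol synthesis genes, 7 were measured, their means ran from -0.087 to 0.22 with a median of 0.026, and 0 passed. List medians were -0.23, 0.24 and 0.17 on arrays 1, 2 and 3, against -0.044, 0.089 and 0.083 over all genes. Array 1 was opposite in sign to the others for 5 of the 7, as it was for 1958 of all 3915 genes. Without array 1 the median was 0.15, and 1 gene passed as higher, where 46.4% of all genes passed. It was the squalene synthase Fdft1 (mean 0.31, limma adjusted p = 0.0421), named after its values were seen. Srebf1, a transcription factor of lipid synthesis, had 0.13, 0.26 and 0.28 (mean 0.22 ± 0.08, limma adjusted p = 0.565). The last enzyme of the pathway, Dhcr7, had -0.14, 0.24 and 0.26 (0.12 ± 0.23), and the sterol isomerase Ebp -0.25, -0.071 and 0.057 (-0.087 ± 0.15).

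In the list of cholesterol efflux and storage, 3 of 16 genes were measured, with a median of 0.29, and 0 passed. From arrays 2 and 3 alone the median was -0.091, and limma called Abca2 higher and Plin2 lower, where 46.4% of all genes passed. The lipid droplet coat protein Plin2 had -0.56, -0.42 and -0.41 (mean -0.46 ± 0.09, limma adjusted p = 0.245), its relative Plin3 1.06, -0.13 and -0.047 (0.29 ± 0.67), and the transporter Abca2 0.11, 0.59 and 0.42 (0.37 ± 0.25). Of 34 genes of fatty acid uptake, synthesis and oxidation, 11 were measured, with a median of 0.13, and 0 passed. Arrays 2 and 3 alone gave 0.028, and 2 genes then passed as higher and 4 as lower, again where 46.4% of all genes passed. The elongase Elovl5 had 0.45, -0.83 and -1.30 (mean -0.56 ± 0.90, and -1.06 without array 1), the fatty acid transport protein Slc27a3 -0.010, 0.77 and 0.39 (0.38 ± 0.39), and Hadhb, a subunit of the mitochondrial trifunctional protein, -0.49, -0.32 and -0.31 (-0.37 ± 0.10). For 7 of these 11 genes, array 1 had the sign opposite to arrays 2 and 3, as for 1958 of all 3915 genes.

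**Figure D5:**
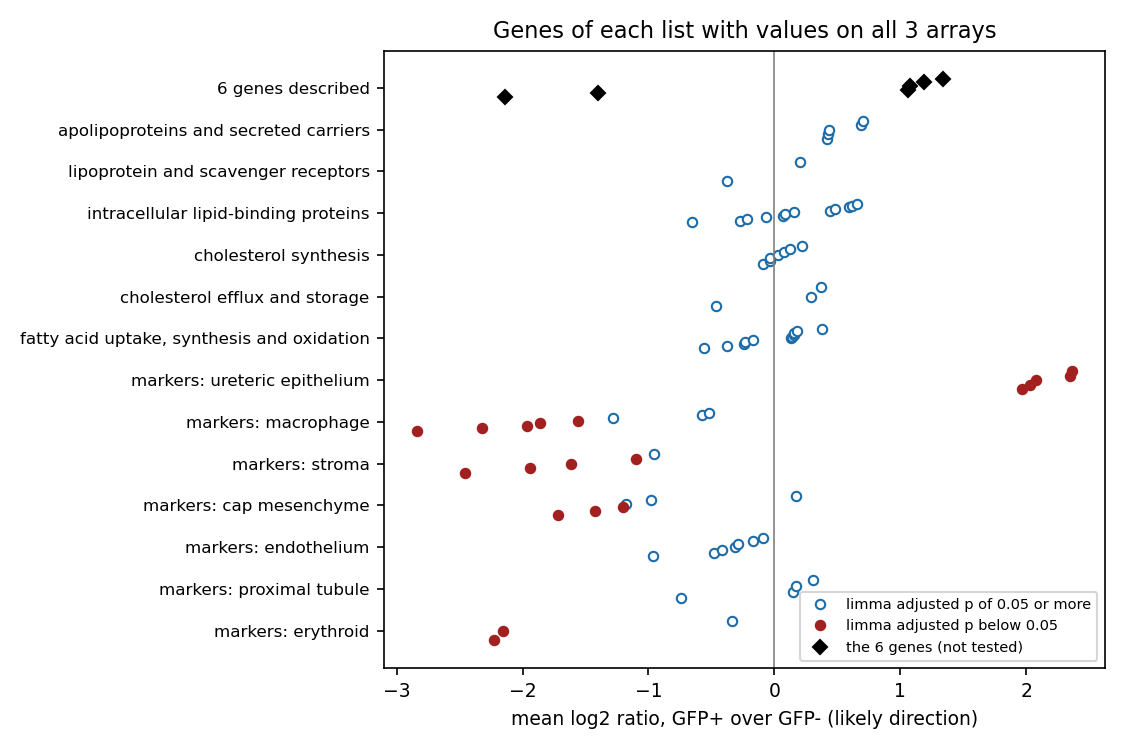
Mean log2 ratio (GFP+ over GFP-, likely direction; 3 arrays) of each gene with values on all 3 arrays, by list; filled red points passed limma at adjusted p below 0.05, open blue points did not, and black diamonds are the 6 genes, which carry no test. The related lipid genes lie between -0.65 and 0.70.

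Markers of macrophages, stroma, erythroid cells and cap mesenchyme held genes that passed as lower in GFP+ cells, the side on which Apoe and Lrp1 lay, whereas 0 endothelial and 0 proximal tubule markers passed by limma (2 and 1 at an unadjusted p below 0.05). The marker lists were chosen with earlier results of these data known, so their counts and signs only describe them. Over all genes, 1.40% passed as lower, and 598 of 3915 were negative on every array. Of 18 macrophage markers, 8 had values on all 3 arrays, all 8 had negative ratios on every array, and 5 passed. Their means ran from -2.84 to -0.52 with a median of -1.71, and the leukocyte glycoprotein Cd52 (-2.84 ± 0.28) and the Fc receptor gamma chain Fcer1g (-2.33 ± 0.56) lay lowest. Without array 1, 7 of the 8 passed as lower, where 46.4% of all genes passed in either direction. Genes of this list with fewer values are named after these were seen. On array 3 alone, Lyz2 had 0.31, Cd68 -1.69 and Ptprc -0.89, and on arrays 1 and 2 Aif1 had -1.35 and -0.80. The means of Apoe (-2.14) and Lrp1 (-1.40) both fell inside the macrophage range. Of 15 stromal markers, 5 were measured, all 5 were negative on every array, and 4 passed, with means from -2.46 to -0.96, led by the matrix protein Mgp (-2.46 ± 0.62) and the transcription factor Tcf21 (-1.94 ± 0.35). The means of Apoe and Lrp1 both fell inside the stromal range.

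Of 9 erythroid markers, 3 were measured, all negative on every array, and 2 passed, the globin Hba-x (-2.22 ± 0.38) and the heme enzyme Alas2 (-2.15 ± 0.07). Of 12 cap mesenchyme markers, 6 were measured, 5 of them negative on every array and Osr1, named after its values were seen, positive in mean (0.17), and 3 passed, led by Crym (-1.72 ± 0.59) and Wt1 (-1.42 ± 0.37). Of 12 endothelial markers, 7 were measured with means from -0.96 to -0.094, and 0 of 7 passed by limma (2 at an unadjusted p below 0.05). The lowest were Ramp2 (-0.96 ± 0.94) and Emcn (-0.48 ± 0.37). Among those with fewer values, named after they were seen, Cdh5 had -2.08 and -1.28 on arrays 2 and 3. On array 3 alone, Pecam1 had -1.46 and Sox17 -0.056. Without array 1, where 46.4% of all genes passed in either direction, 5 of 5 stromal and 3 of 3 erythroid markers passed as lower. Of 6 cap mesenchyme markers, 5 then passed as lower and 1 as higher, and of 7 endothelial markers 1 passed as lower. The means of Apoe and Lrp1 also fell inside the erythroid range (-2.22 to -0.33). That of Lrp1 fell inside the cap mesenchyme range (-1.72 to 0.17) as well. The part of each cell type in the ratios of Apoe and Lrp1 was not tested. Apoc1, Vldlr, Stard10 and Fabp3 lay on the side of the ureteric markers, whose 5 measured means ran from 1.97 to 2.36, above all 4. Of 11 proximal tubule markers, 4 were measured, with means from -0.74 (Ttr, ± 0.45) to 0.30 (Fxyd2, ± 0.56), and 0 passed by limma (1 at an unadjusted p below 0.05), against 1 higher and 1 lower without array 1.

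The genes whose ratios were most like each of the 6 were found by Euclidean distance over the 3 log2 ratios, a measure on which large ratios have few near neighbours. Nearest to Apoe were Alas2 (distance 0.13), the tropomyosin Tpm2 (0.13) and the chemokine Ccl6 (0.25). Nearest to Lrp1 were the collagen prolyl hydroxylase P3h3 (0.25), the Wnt inhibitor Apcdd1 (0.29) and the transcription factor Nfia (0.32).

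On the higher side, Apoc1 was nearest to the homeobox gene Hoxd4 (0.16), the channel-activating protease Prss8 (0.23) and the ubiquitin ligase Rnf128 (0.28). Nearest to Vldlr were Flywch2 (0.24), the laminin chain Lama1 (0.41) and the small heat shock protein Hspb1 (0.42). Stard10 had the closest neighbours, the tubulin Tubb6 (0.061), the mitochondrial sulfur dioxygenase Ethe1 (0.11) and Fanca, of the Fanconi anaemia pathway (0.14). Fabp3 was nearest to the Ras-related GTPase Rras2 (0.18), the signalling inhibitor Spry1 (0.23) and the chemokine Ccl21c (0.25), whose near-identical gene copies could share signal. With 3 arrays these distances only describe the ratios.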

How the data were processed

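The 3 arrays form 1 group of 3 replicates, and no label says whether each had its own embryos; p-values therefore reflect the scatter among these arrays, which may be technical. Per the labels, images were read with Imagene 5.5, a Lowess curve using 20% of the data was used to adjust the control channel, with 10 as the lowest control value allowed. The deposited values are log2 ratios, a base settled from the numbers: 2 raised to the value was a whole number of thousandths, within 0.01 of a thousandth, for 99.97% of values, against 2.37% for base e. The titles call the table filtered, and the filter's rule, the genome build and the dyes are not given in the sources used here. Of 22702 features, 4399 gene features had values on all 3 arrays, and 4 control spots with values were left out. Symbols of the platform annotation (17252 probes with 1 symbol, 156 with several, 5294 features unnamed) were updated by gene identifier to RefSeq, which matched 16566. The 3987 probes with 1 symbol were averaged by gene, which left 3915 genes.

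Mean ratios were compared with 0 by a two-sided limma fit (version 3.58.1, R 4.3.3; lmFit and eBayes) and adjusted by Benjamini-Hochberg over all genes at 0.05, after tests on simulated data. As no dyes were swapped, dye bias of single probes and differences between the cells cannot be told apart. The genes and lists were chosen with earlier results of these data known. The text names the 6 genes, the 3 genes of largest mean in each lipid list and in a list of 8 genes near Apoe (Apoc1, Apoc2, Apoc4, Tomm40, Nectin2, Bcam, Clptm1 and Relb), the 2 of largest mean in each marker list, and the 3 nearest genes of each of the 6; others are said to be named after their values were seen. Alternatives were leaving out each array, centring, scaling, quantile normalization, averaging arrays 2 and 3, array weights (limma's gene-by-gene method, since its default did not converge), values on at least 2 arrays, probes tested singly and an ordinary one-sample statistic. Intensities were not analysed here; signal over background, and whether the floor on the control channel touched a ratio, was not examined. The number of arrays limits the precision.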

Additional observations from a re-analysis of the deposited data

How the results depend on the processing

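The mean log2 ratio of each of the 6 genes kept its sign under all 10 alternatives that give a mean. It moved by less than its SD over the arrays in 60 of 60 values. Much of this was fixed in advance. Each gene had 1 sign on all 3 arrays, so leaving out or averaging arrays could neither reverse its mean nor move it by its SD. Each also had 1 probe and no missing value, so testing probes singly or allowing missing values could not change its mean. Leaving out 1 array at a time gave -2.23 to -2.08 for Apoe, 1.21 to 1.47 for Apoc1, -1.45 to -1.35 for Lrp1, 0.98 to 1.41 for Vldlr, 0.95 to 1.24 for Stard10 and 1.05 to 1.09 for Fabp3. The number of the 6 past limma's threshold, from which nothing is read, was between 3 and 6 when an array was left out. It was 3 without array 3, where Fabp3, Stard10 and Vldlr did not pass and 74 of all 3915 genes passed. Without array 2 it was 5, where 119 of all genes passed, and without array 1 it was 6, where 1818 did. With arrays 2 and 3 averaged it was 4, where 86 of all genes passed. With arrays centred on their median it was 5, where 118 did. It was 0 with the ordinary one-sample statistic, where only 1 of all 3915 genes passed.

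Over all genes, limma called 109, between 74 and 1818 when an array was left out (1818 without array 1), 2170 with array weights and 1 with the ordinary statistic (471 unadjusted). Of the related lipid genes, 0 passed by limma, 0 to 24 when an array was left out (24 without array 1) and 27 with array weights. Leaving out array 1 thus raises both counts, and the cause was not tested. The other alternatives left the count of related genes at 0, also when the 51 with values on at least 2 arrays were tested. Each ratio already pairs GFP+ with GFP- cells on 1 array, so a further block by replicate number could not be fitted. Missing values also limit the related genes, since 99 of the 139 with a probe lacked a value on at least 1 array.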
